A study of Mus musculus with 24 samples.

Results

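The 36 genes described here carry out or regulate glucose and glycogen metabolism in mouse liver, and were taken from the count table by gene symbol, with no measured value in the rule. All 36 were present among 23411 gene symbols, and all 36 passed the filter on low counts. By role they fall into gluconeogenesis (7 genes), glycogen synthesis and breakdown (7), glucose control particular to hepatocytes (5), glycolysis (10), control of pyruvate dehydrogenase (3) and the pentose phosphate pathway (4). Poly(A) RNA of 24 livers was measured, 3 mice in each of 8 groups. WT mice and exon swap α7HMZ mice, which make only P2-HNF4α, were killed at 10:30, 13:30 or 20:30 while fed ad libitum (LabDiet 5001), or at 10:30 after a 12 h fast. All were males of 16 to 20 weeks on a mixed background of 129/Sv and C57BL/6. The swap is in the germline, so every cell that uses the Hnf4a gene carries it from before birth, and an effect of adult liver alone cannot be separated from one of development or of another organ. The fed 10:30 livers of both genotypes and the fasted WT livers were sequenced on flow cell 375, and all other livers, the fasted α7HMZ livers included, on flow cell 377.

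Liver is the main organ that releases glucose into blood. Between meals it breaks down glycogen and makes new glucose from lactate, alanine and glycerol, and after a meal it stores glucose as glycogen and sends the excess through glycolysis towards fat. Both directions are set by insulin, glucagon, the clock and nuclear receptors, and HNF4α, the nuclear receptor whose promoter use differs between the genotypes, is known as a regulator of many hepatocyte genes of this kind. P1 and P2 transcripts of Hnf4a differ in their first exon, so a count per gene does not separate them.

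Levels are given as CPM, the usual counts scaled by library size, after TMM scaling over all 24 libraries, and log2 fold changes as α7HMZ over WT, later over earlier time, or fasted over fed, each with its standard error. A gene was called when its edgeR p-value, adjusted over all genes tested, was under 0.05. Libraries held 8545959 to 28445590 counts. Hnf4a stood between 575 and 1105 CPM in the 9 fed WT livers and between 806 and 1282 CPM in the 9 fed α7HMZ livers, which checks neither isoform. In 1 library, α7HMZ replicate 1 at 10:30, ribosomal Rn45s took 50.8% of the counts, against at most 3.76% elsewhere, and this library also differed from its 2 companions in several members described below. The 7 hepatocyte markers, Alb and Cps1 among them, summed to between 77067 and 154691 CPM in every library. Alb made up most of each sum, such as 101289 of 132856 CPM in WT replicate 1 at 10:30, where Ass1 was at 0.0907 CPM. Each hepatocyte sum given here therefore mainly reads Alb, and single markers can move otherwise. Ass1 did not exceed 0.387 CPM in any library, for a reason that was not tested, and adds almost nothing to the sums. The 7 markers summed to 86929 to 154691 CPM in fed WT livers and 78926 to 121158 CPM in fed α7HMZ livers, and 4 of the 6 tested were called lower in α7HMZ. Of the 6 biliary markers, which summed to 36.4 to 69.5 CPM in fed WT and 49.3 to 89.96 CPM in fed α7HMZ livers, 2 of 5 tested were called higher. The erythroid sum, 143 to 195 CPM in fed WT and 53.2 to 83.6 CPM in fed α7HMZ livers, came mostly from Alas2, since Hba-a2 and Hbb-b1 had no count in either. In bulk liver, fewer cells of a type and less RNA per cell cannot be told apart, and the part of these markers in the results below was not tested.

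Per kilobase of exon, Pck1 led the list in fed WT livers, at 880 ± 196 CPM per kb (SD, n = 9), followed by Gapdh at 673 ± 155 and Fbp1 at 555 ± 137. Pck1 stood apart from Gapdh by slightly more than its own SD, and Gapdh from Fbp1 by less than either SD. Ldha followed at 344 ± 66.0. At the low end stood Ppp1r3g at 0.921 ± 0.749, Pck2 at 0.513 ± 0.0996 and Eno1 at 0.511 ± 0.160. Eno1 is not a measure of liver enolase here. It had 12 to 34 counts in a library, while Gm5506, a near-identical copy, had 616 to 2683, and only 1 alignment was kept for a read. No level per kilobase is given for Aldoa, which has 2 entries in the annotation.

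Sequences near the start sites were read from RefSeq (GRCm38.p6), from 250 bases before to 50 bases after each start. They gave 51 windows for 34 of the 36 genes. Windows were searched on both strands for CAAAGTCCA and its first 7 letters, CAAAGTC, known from binding sites of HNF4α, for the E-box CACGTG, which the clock factors BMAL1 and CLOCK bind, and for TTANGTAA, a form of the D-box of the clock output factors. The 9 letters were in none of the 51 windows and in 0.475% of all 32851 windows, and the 7 letters, which every 9-letter match contains, were in 1 (G6pdx) and in 4.44% of all. The E-box was in 6 windows, 11.8% of the 51, against 7.15% of all, belonging to Khk, Ldha, Pcx, Pdk2, Pfkfb3 and Ppp1r3c. The D-box was in 2 windows, 3.92% against 2.32%, belonging to Eno1 and G6pc. No count says from which start a transcript came, so a match is a description of the letters in the window and not a site in use. The windows of 3 of these genes are printed as examples whose counts moved with genotype, time or fasting as described below. Each of the 3 also has another start, whose window held none of the letters searched for and is not printed. Others of these genes, Khk and Ppp1r3c among them, had calls as well, and their windows are not printed. Capitals mark CACGTG, which begins 248 bases before the start in Pcx (chr19:4510222-4510521, plus strand), 53 bases before it in Pfkfb3 (chr2:11502041-11502340, minus strand), and 145 and 48 bases before it in Ldha (chr7:46845554-46845853, plus strand). Each is written 5′ to 3′ on the strand of its gene.
Pcx: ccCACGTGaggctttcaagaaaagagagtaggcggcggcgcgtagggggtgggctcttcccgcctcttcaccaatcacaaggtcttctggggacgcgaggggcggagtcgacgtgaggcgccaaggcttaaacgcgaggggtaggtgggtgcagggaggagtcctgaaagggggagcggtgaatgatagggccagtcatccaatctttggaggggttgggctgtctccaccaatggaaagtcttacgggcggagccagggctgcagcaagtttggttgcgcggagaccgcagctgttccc
Pfkfb3: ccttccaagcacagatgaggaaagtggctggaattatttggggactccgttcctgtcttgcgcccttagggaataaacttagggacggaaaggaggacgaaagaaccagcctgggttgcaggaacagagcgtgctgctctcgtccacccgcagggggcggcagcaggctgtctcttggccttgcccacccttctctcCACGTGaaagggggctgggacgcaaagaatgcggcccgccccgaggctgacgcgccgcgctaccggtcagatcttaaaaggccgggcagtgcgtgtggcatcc
Ldha: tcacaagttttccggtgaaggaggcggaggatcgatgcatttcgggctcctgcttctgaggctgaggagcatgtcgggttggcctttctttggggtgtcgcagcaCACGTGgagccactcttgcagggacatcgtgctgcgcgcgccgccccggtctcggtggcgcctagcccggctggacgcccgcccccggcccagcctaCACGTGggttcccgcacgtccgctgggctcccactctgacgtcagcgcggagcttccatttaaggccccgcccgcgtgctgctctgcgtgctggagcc

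To ask how livers with only P2-HNF4α differ from WT when fed, the genotype difference was averaged over the 3 times. Of the 36 genes, 17 were called (47.2%), where 26.5% of all 13334 genes tested were called. Lower in α7HMZ were 14 of the 36, against 13.2% of all genes, and higher were 3, against 13.3% of all genes. The median log2 fold change over the 36 was -0.13, beside 0.03 over all genes. By role, 3 genes of gluconeogenesis were lower and 2 higher, 4 of glycogen metabolism were lower, 2 of hepatocyte glucose control were lower, 4 of glycolysis were lower and 1 higher, 1 of the pyruvate dehydrogenase group was lower, and none of the 4 pentose phosphate genes was called. The balance of directions depended on the scaling. With an offset per gene and library that evens out GC content and quantiles, modelled on the EDASeq step named in the study's methods (GC-quantile offsets), 6 of the members were lower and 7 higher, while over all genes 1596 were lower and 2107 higher (1760 and 1776 with TMM). The calls of Pck1, Slc37a4, Pygl, Ugp2, Slc2a2, Gapdh, Pgk1 and Ldha ended there, while Pck2, Fbp1, Pgam1, Pcx, Gys2, Ppp1r3g, Pfkfb1, Tpi1 and Pdk1 were still called, each in the same direction. Called there in addition, all higher, were Gbe1 (0.22), Gckr (0.28), Gpi1 (0.35) and Tkt (0.28). With upper quartile factors 5 members were higher and 13 lower, beside 2265 and 1499 of all genes. With relative log expression factors 1 member was higher and 14 lower, beside 1682 and 1803.

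**Figure D1:**
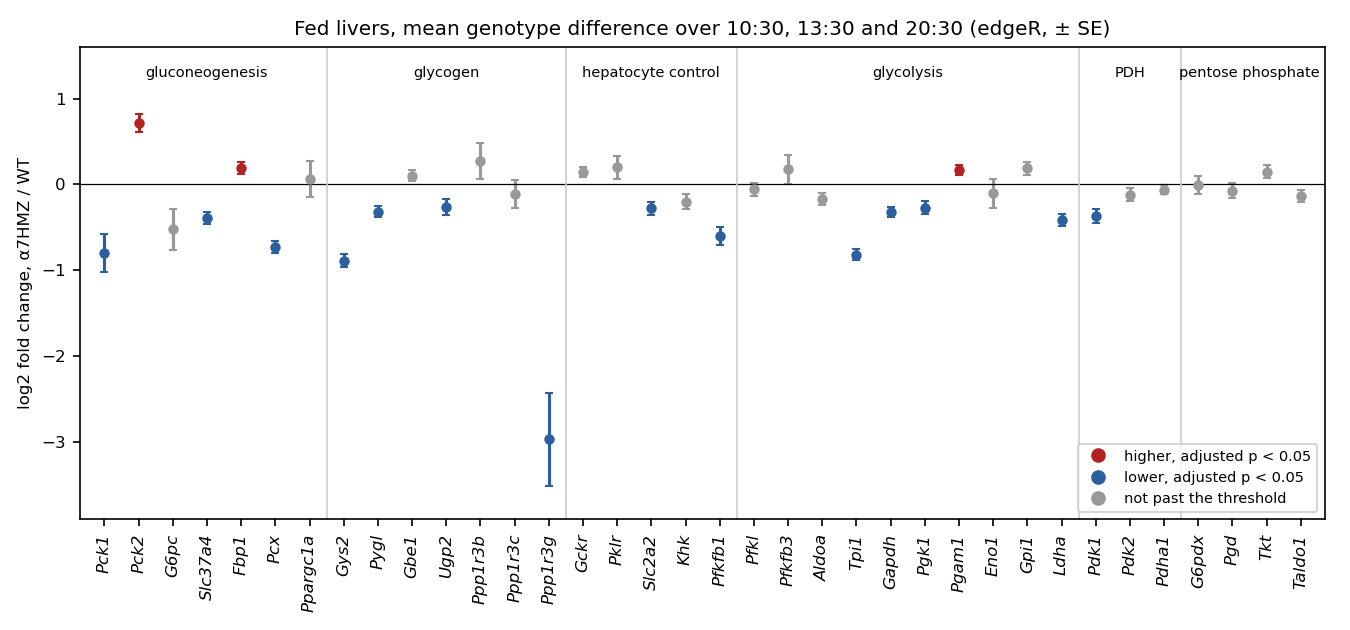
Log2 fold change (α7HMZ over WT, vertical axis) of each of the 36 genes, ordered by role, as the mean over the 3 fed times, with bars for the standard error. Blue points are lower and red points higher at an adjusted p under 0.05, and grey points did not pass; Ppp1r3g lies lowest at -2.97, and Pck2 highest at 0.72. With GC-quantile offsets 7 of the 36 genes were higher and 6 lower, beside 2107 and 1596 of all genes.

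Among the gluconeogenic genes, Pck1 encodes the cytosolic PEPCK that turns oxaloacetate into phosphoenolpyruvate (chromosome 2, 173153048 to 173159273, mm10). Fed WT livers held 2119, 1883 and 1813 CPM of Pck1 at 10:30, 2247, 3472 and 2693 at 13:30, and 2233, 1977 and 2644 at 20:30. Fed α7HMZ livers held 1870.0, 625 and 633 CPM at 10:30, 1506, 984 and 1887 at 13:30, and 901, 2479.8 and 1181 at 20:30. Every α7HMZ liver was below every WT liver at 13:30, and the groups overlapped at 10:30 and 20:30 through 1 α7HMZ liver each. The mean difference was -0.80 ± 0.22 (adjusted p = 0.0108), and none of the 3 times was called alone. The high liver at 10:30 was the one with 50.8% Rn45s. Without it the difference at 10:30 was -1.64 (adjusted p = 0.00257) in place of -0.88 (0.124), and with GC-quantile offsets the mean difference of Pck1 was -0.43 (adjusted p = 0.170).

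Pcx encodes pyruvate carboxylase, the mitochondrial enzyme that makes oxaloacetate, from which PEPCK makes phosphoenolpyruvate (chromosome 19, 4510472 to 4621752). Its level in fed WT livers was 391.7, 375 and 362 CPM at 10:30, 296, 369.9 and 333 at 13:30, and 407, 381 and 495 at 20:30. In fed α7HMZ livers it was 213, 198 and 192 CPM at 10:30, 210.5, 212 and 228 at 13:30, and 293, 296 and 221 at 20:30. The genotypes did not overlap at any time. Pcx was lower by -0.73 ± 0.070 on average (adjusted p = 2.45e-07), and was called at 10:30 (-0.90), 13:30 (-0.62) and 20:30 (-0.67). It was 1 of 3 members lower at each fed time, with Gys2 and Tpi1, where 3.07% of all genes were. With GC-quantile offsets the difference of Pcx at 20:30 was -0.28 and did not pass (adjusted p = 0.0564). No member was higher at each time, against 1.37% of all genes.

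Pck2, the mitochondrial PEPCK, went the other way at a low level. It held 1.91, 2.34 and 2.11 CPM in WT livers at 10:30, 1.76, 2.63 and 2.12 at 13:30, and 2.824, 3.20 and 2.45 at 20:30. The α7HMZ livers held 3.67, 3.41 and 4.16 CPM at 10:30, 4.10, 3.64 and 3.45 at 13:30, and 4.57, 3.75 and 3.71 at 20:30. All 9 fed α7HMZ livers lay above all 9 fed WT livers. The mean difference was 0.72 ± 0.11 (adjusted p = 5.14e-05), on 25 to 115 counts in a library.

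Of the other 4 genes of gluconeogenesis, Slc37a4, the transporter of glucose 6-phosphate into the endoplasmic reticulum, ranged from 183 to 302 CPM in fed WT and from 121 to 232 CPM in fed α7HMZ livers, and was lower by -0.39 ± 0.071 (adjusted p = 0.00039). G6pc, the catalytic subunit of glucose 6-phosphatase that works beside it, was -0.52 ± 0.24 and did not pass (adjusted p = 0.115). Its livers scattered widely within groups, from 127 to 377 CPM in fed α7HMZ and from 227 to 527 CPM in fed WT. Fbp1, fructose bisphosphatase, was higher by 0.19 ± 0.067 (adjusted p = 0.0402), a call that ended under 17 of the alternatives. Ppargc1a, a coactivator of gluconeogenic genes, was 0.06 ± 0.21 (adjusted p = 0.859). At 10:30 it held 18.8, 19.7 and 13.5 CPM in WT livers and 28.4, 7.22 and 8.32 CPM in α7HMZ livers, where the first value again belonged to the library rich in Rn45s. Without that library Ppargc1a at 10:30 was lower by -1.17 (adjusted p = 0.00128).

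In glycogen metabolism, Gys2 encodes the liver glycogen synthase (chromosome 6, 142422613 to 142473109). Fed WT livers held 130.2, 123 and 120.0 CPM at 10:30, 259, 259 and 233 at 13:30, and 252, 213 and 239.7 at 20:30. Fed α7HMZ livers held 69.2, 58.7 and 54.8 CPM at 10:30, 156, 179 and 152 at 13:30, and 89.0, 138 and 121 at 20:30. At each time the genotypes were apart. Gys2 was lower in α7HMZ by -0.89 ± 0.077 (adjusted p = 6.17e-08), a fold of 0.540, with -1.02 at 10:30, -0.62 at 13:30 and -1.02 at 20:30.

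Ppp1r3g, a subunit that brings protein phosphatase 1 to glycogen (chromosome 13, 35958839 to 35970388), was scarce, with 0 to 182 counts in a library. WT livers held 1.91, 3.08 and 0.976 CPM at 10:30, 3.98, 6.15 and 2.69 at 13:30, and 0.941, 0.128 and 1.03 at 20:30. Those of α7HMZ held 2.88, 0.0811 and 0.222 CPM at 10:30, 0.436, 0.387 and 0.230 at 13:30, and 0.0397, 0.00 and 0.0562 at 20:30. The groups were apart at 13:30 and 20:30, and overlapped at 10:30 through the library with the most Rn45s. The mean difference was -2.97 ± 0.54 (adjusted p = 0.000397). At 10:30 it was -1.05 ± 0.70 with that library and -3.59 (adjusted p = 0.00234) without it. In summed counts the ratio of α7HMZ to WT was 0.0801 at 13:30 (26 against 315 counts, 95% interval 0.0515 to 0.120) and 0.0410 at 20:30 (2 against 36 counts, 0.00478 to 0.159). These intervals are binomial (Clopper-Pearson), and cover counting error only.

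**Figure D2:**
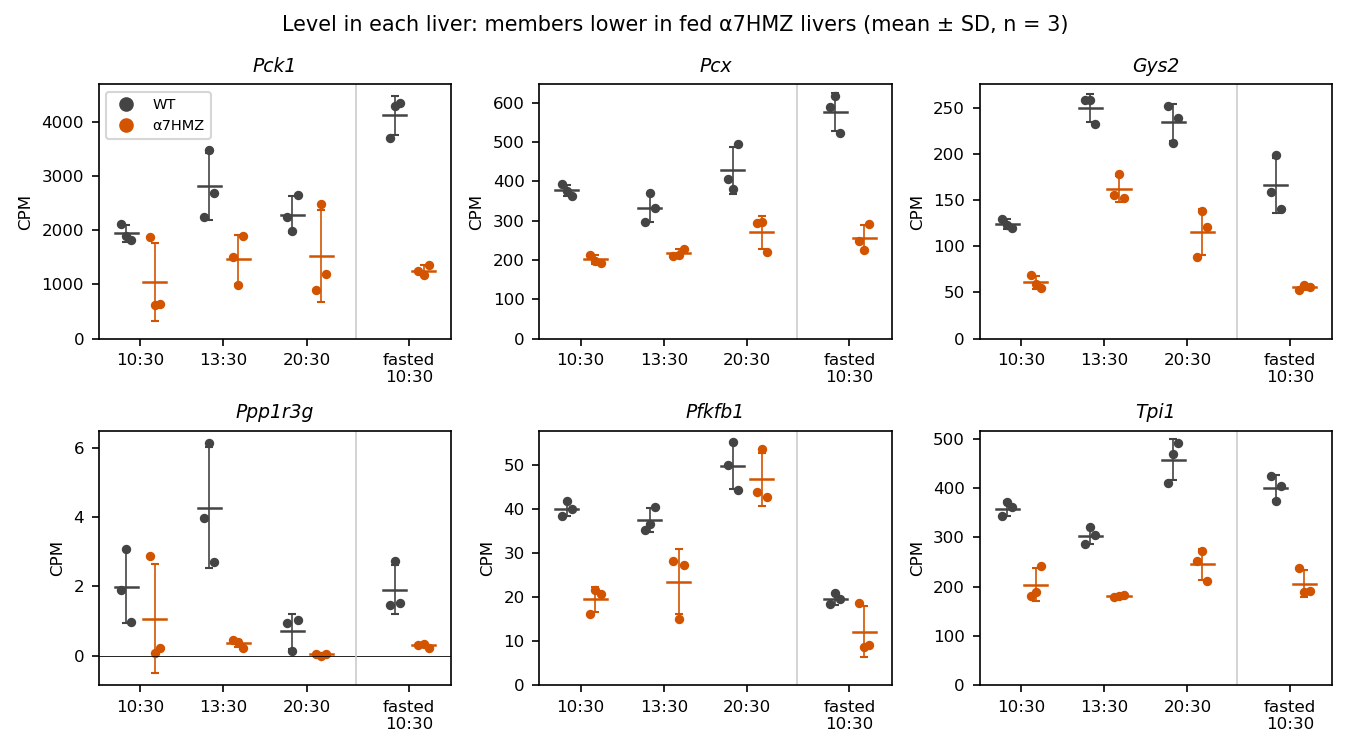
CPM (vertical axis, linear, a separate scale in each panel) in each liver of 6 genes that were lower in fed α7HMZ livers, at 10:30, 13:30 and 20:30 fed and, right of the grey line, at 10:30 fasted. Dots are livers, WT in grey and α7HMZ in orange, and lines are the mean ± SD of 3; Pcx, Gys2 and Tpi1 show no overlap of the genotypes in any condition, and Pck1 and Ppp1r3g have 1 high α7HMZ liver at 10:30.

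Pygl, the liver glycogen phosphorylase that releases glucose from glycogen, differed by time. WT livers held 561, 534 and 535 CPM at 10:30, 353, 336 and 339.8 at 13:30, and 416, 452 and 359 at 20:30. In α7HMZ it stood at 267, 319 and 357 CPM at 10:30, 316, 317 and 295 at 13:30, and 379.7, 445 and 385 at 20:30. WT livers were far above α7HMZ at 10:30 and barely above them at 13:30, and the groups overlapped at 20:30. The log2 fold change was -0.78 at 10:30 (adjusted p = 8.18e-05), -0.15 at 13:30 and -0.02 at 20:30, and the genotype by time test passed (adjusted p = 0.0228). At 20:30 the sign of Pygl turned with GC-quantile offsets (0.28, adjusted p = 0.0489).

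Ppp1r3c, another subunit that targets protein phosphatase 1 to glycogen, held 92.3, 61.9 and 64.1 CPM in WT livers at 10:30, 32.1, 54.4 and 33.0 at 13:30, and 27.7, 33.2 and 34.4 at 20:30. In α7HMZ livers it held 32.0, 33.9 and 47.6 CPM at 10:30, 44.8, 18.8 and 43.8 at 13:30, and 65.9, 39.5 and 53.4 at 20:30. The order of the genotypes was opposite at 10:30 and 20:30, with no overlap at either time. Only the difference at 10:30 was called (-0.93 ± 0.28, adjusted p = 0.0304), that at 20:30 was 0.74 ± 0.29 (0.0775), and genotype by time passed narrowly (adjusted p = 0.0485), a call that ended under 20 of 27 alternatives.

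The other phosphatase subunit of the list, Ppp1r3b, which is the main one of liver, did not pass between fed genotypes (0.28 ± 0.21, adjusted p = 0.371). It held 377, 317 and 390.4 CPM in WT livers at 10:30, 207, 172 and 181 at 13:30, and 303, 457 and 311 at 20:30. In α7HMZ livers it stood at 340.3, 373 and 513 CPM at 10:30, 355, 67.5 and 165 at 13:30, and 400.2, 546 and 652 at 20:30. At 13:30 the 3 α7HMZ livers spread widely around the WT values. Gbe1, the branching enzyme, did not pass, at 86.9 to 95.4 CPM in the 9 fed WT livers and 82.9 to 119 CPM in the 9 fed α7HMZ livers (0.10 ± 0.065, adjusted p = 0.272). Ugp2, which makes the UDP-glucose that glycogen is built from, was lower by -0.27 ± 0.095 (adjusted p = 0.0446), with ranges of 231 to 317 CPM in WT and 165 to 330.5 CPM in α7HMZ, and this call ended under 17 alternatives.

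Among genes that set how hepatocytes take up and trap sugar, Pfkfb1 encodes the liver form of the enzyme that makes and removes fructose 2,6-bisphosphate, the switch between glycolysis and gluconeogenesis. WT livers held 38.5, 41.7 and 39.9 CPM at 10:30, 35.2, 36.5 and 40.5 at 13:30, and 49.99, 55.1 and 44.3 at 20:30. Those of α7HMZ held 16.2, 21.5 and 20.7 CPM at 10:30, 28.2, 14.9 and 27.1 at 13:30, and 43.8, 53.5 and 42.7 at 20:30. The genotypes were apart in the light phase, at 10:30 and 13:30, and overlapped after lights off. The mean difference was -0.60 ± 0.10 (adjusted p = 0.00025), with -1.03 at 10:30, -0.67 at 13:30 and -0.09 at 20:30, while genotype by time did not pass for Pfkfb1 (adjusted p = 0.0715).

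Slc2a2 encodes GLUT2, through which glucose enters and leaves hepatocytes. WT livers held 289.8, 293 and 293 CPM at 10:30, 263, 261 and 227 at 13:30, and 216, 210.5 and 211 at 20:30. In α7HMZ livers there were 164, 159 and 183 CPM at 10:30, 297, 251 and 235 at 13:30, and 149.9, 202 and 237 at 20:30. The groups were apart at 10:30 only. Its difference was -0.78 ± 0.13 at 10:30 (adjusted p = 0.000437) and 0.06 and -0.11 at the later times, and genotype by time passed (adjusted p = 0.0324). Gckr encodes the regulatory protein that holds glucokinase in the nucleus. WT livers held 145, 143 and 168 CPM of Gckr at 10:30, 121, 127 and 117 at 13:30, and 107, 115 and 93.3 at 20:30, and this order of times lies across 2 flow cells and was not tested. The α7HMZ livers stayed within a narrower range, at 133, 137 and 136 CPM, then 135, 137 and 135, then 137, 151 and 137. At 20:30 Gckr was higher in α7HMZ (0.43 ± 0.094, adjusted p = 0.00409), at 10:30 it was -0.16 ± 0.094 (0.271), and genotype by time passed (adjusted p = 0.0401).

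The last genes of this group did not pass between fed genotypes. Pklr, the liver pyruvate kinase, held 139 to 168 CPM in the 9 WT livers, and a wider 72.7 to 274 CPM in the 9 α7HMZ livers (0.20 ± 0.14, adjusted p = 0.316). By time its WT values were 143, 147 and 141, then 154, 155 and 158, then 168, 153 and 139 CPM, and its α7HMZ values 72.7, 158 and 119, then 272, 206 and 165, then 139.6, 205 and 274 CPM. Khk, the ketohexokinase that starts fructose breakdown, was -0.20 ± 0.085 (adjusted p = 0.0909).

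Of the glycolytic enzymes, Tpi1, triose phosphate isomerase, differed most (chromosome 6, 124810586 to 124814296). WT livers held 342, 372 and 361 CPM at 10:30, 286, 320.4 and 304 at 13:30, and 411, 469.6 and 492 at 20:30. The α7HMZ livers held 181, 188 and 242 CPM at 10:30, 178, 181 and 183 at 13:30, and 253, 272 and 211 at 20:30. All 9 α7HMZ livers lay below all 9 WT livers. The mean difference was -0.82 ± 0.067 (adjusted p = 2.77e-08), a fold of 0.567, with -0.81, -0.75 and -0.90 at the 3 times. Neighbouring steps differed less. Gapdh was lower by -0.32 ± 0.059, Pgk1, phosphoglycerate kinase, by -0.27 ± 0.072, and Pgam1, phosphoglycerate mutase, was higher by 0.17 ± 0.060, with adjusted p of 0.000464, 0.00859 and 0.0467. Gapdh, often used as a reference gene, spanned 820 to 1472 CPM in WT and 635 to 997 CPM in α7HMZ livers, and with GC-quantile offsets its difference was -0.01 (adjusted p = 0.933). The Pgam1 call ended under 18 alternatives.

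Ldha, the muscle-type subunit of lactate dehydrogenase, held 655, 586 and 619 CPM in WT livers at 10:30, 531, 599 and 505 at 13:30, and 758, 701 and 909.8 at 20:30. In α7HMZ livers Ldha was at 457, 493 and 583 CPM at 10:30, 454, 421 and 474 at 13:30, and 529.8, 516 and 419 at 20:30. Genotypes did not overlap at any of the times, though the gap at 10:30 was narrow. Ldha was lower by -0.41 ± 0.070 on average (adjusted p = 0.000196), and the only time called alone was 20:30 (-0.69 ± 0.12, adjusted p = 0.000676). Aldoa, Gpi1, Pfkl and Eno1 did not pass in the mean over times, with differences of -0.17, 0.19, -0.06 and -0.11. Aldoa was lower at 20:30 (-0.41 ± 0.12, adjusted p = 0.0222), with the genotypes overlapping, and this call ended under 7 of 27 alternatives, upper quartile factors and GC-quantile offsets (adjusted p = 0.309) among them.

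Pfkfb3, the inducible relative of Pfkfb1, differed between genotypes by time (chromosome 2, 11471433 to 11554077). WT livers held 15.02, 11.1 and 25.9 CPM at 10:30, 81.5, 81.7 and 83.5 at 13:30, and 19.2, 23.7 and 24.0 at 20:30. The α7HMZ livers held 40.7, 65.7 and 42.4 CPM at 10:30, 55.2, 39.0 and 45.8 at 13:30, and 10.3, 26.2 and 22.3 at 20:30. WT livers at 13:30 stood far above both other WT groups, whereas the α7HMZ livers at 10:30 and 13:30 overlapped. Pfkfb3 was higher in α7HMZ at 10:30 (1.53 ± 0.30, adjusted p = 0.00159), -0.81 ± 0.28 at 13:30 (0.069) and -0.19 ± 0.30 at 20:30, and genotype by time passed (adjusted p = 0.0157). The comparison of 10:30 with 13:30 lies across the flow cells, while each genotype difference lies within one.

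Of the genes at the gate to the citric acid cycle, Pdk1, a kinase that switches pyruvate dehydrogenase off, was lower by -0.37 ± 0.082 (adjusted p = 0.00201), from 87.3 to 114 CPM in WT and 55.4 to 110.3 CPM in α7HMZ livers. Its sister Pdk2 and the enzyme subunit Pdha1 were -0.12 and -0.06 and did not pass. None of the 4 pentose phosphate genes, which make NADPH and ribose, passed in the mean over times. G6pdx, the first enzyme of the pathway, held 6.76, 7.02 and 5.53 CPM in WT livers at 10:30, 3.89, 4.86 and 3.72 at 13:30, and 3.12, 4.61 and 3.48 at 20:30. In α7HMZ livers it held 4.37, 4.78 and 3.38 CPM at 10:30, 5.19, 3.99 and 4.43 at 13:30, and 4.61, 5.25 and 5.40 at 20:30. Only at 10:30 were the genotypes apart, with α7HMZ lower (-0.63 ± 0.18, adjusted p = 0.024), and genotype by time passed for G6pdx (adjusted p = 0.0424) on 36 to 150 counts in a library. Pgd, the second oxidative enzyme, stood at 33.8, 44.1 and 32.0 CPM in WT and 27.97, 23.7 and 28.7 CPM in α7HMZ livers at 10:30 (-0.45 ± 0.15, adjusted p = 0.0527). Later its genotypes overlapped, with WT at 23.7, 26.0 and 26.8, then 18.3, 30.8 and 24.3 CPM, and α7HMZ at 25.4, 26.6 and 24.2, then 28.1, 29.3 and 27.8 CPM.

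By single times, 13 of the 36 members were called at 10:30 where 17.3% of all genes were, 6 at 13:30 (12.8% of all) and 10 at 20:30 (19.1% of all). At 10:30, 3 were higher and 10 lower, against 8.36% and 8.98% of all genes. At 13:30, 1 was higher and 5 lower, against 6.19% and 6.61%, and at 20:30, 1 was higher and 9 lower, against 8.29% and 10.8%. GC-quantile offsets gave 4 higher members and 8 lower for 10:30, beside 1373 and 1144 of all genes (1115 and 1197 with TMM). For 13:30 they gave 6 higher members and 5 lower, beside 934 and 784 (825 and 881 with TMM). For 20:30 there were 6 higher and 4 lower, beside 1068 and 1109 (1105 and 1446 with TMM). The balance of members thus turned at the later times, while the split over all genes moved too. Upper quartile factors gave 2 higher members and 5 lower for 13:30, beside 1060 and 705 of all genes. For 20:30 they gave 2 higher with 7 lower, beside 1354 and 1153. The share of members at 13:30, 16.7%, was near the background. The genotype by time test passed for 6 of the 36 (16.7%, background 4.99%), namely Pygl, Ppp1r3c, Gckr, Slc2a2, Pfkfb3 and G6pdx. In 5 of the 6, fed WT livers had their highest group mean at 10:30, and Pfkfb3 had it at 13:30. This order of times lies across the flow cells, was not tested, and was not counted over all genes. These 6 calls were not firm as a count. Leaving out 1 library at a time gave 1 to 7 members. It was 1 without WT replicate 1, WT replicate 2 or α7HMZ replicate 2 at 10:30, and 2 without the remaining WT liver at 10:30, WT replicate 3 at 13:30 or 20:30, or α7HMZ replicate 1 at 13:30. It was 3 without WT replicate 1 or α7HMZ replicate 3 at 13:30, or α7HMZ replicate 1 or 3 at 20:30. Pfkfb3 was the member whose call ended in none of the 27 alternatives.

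**Figure D3:**
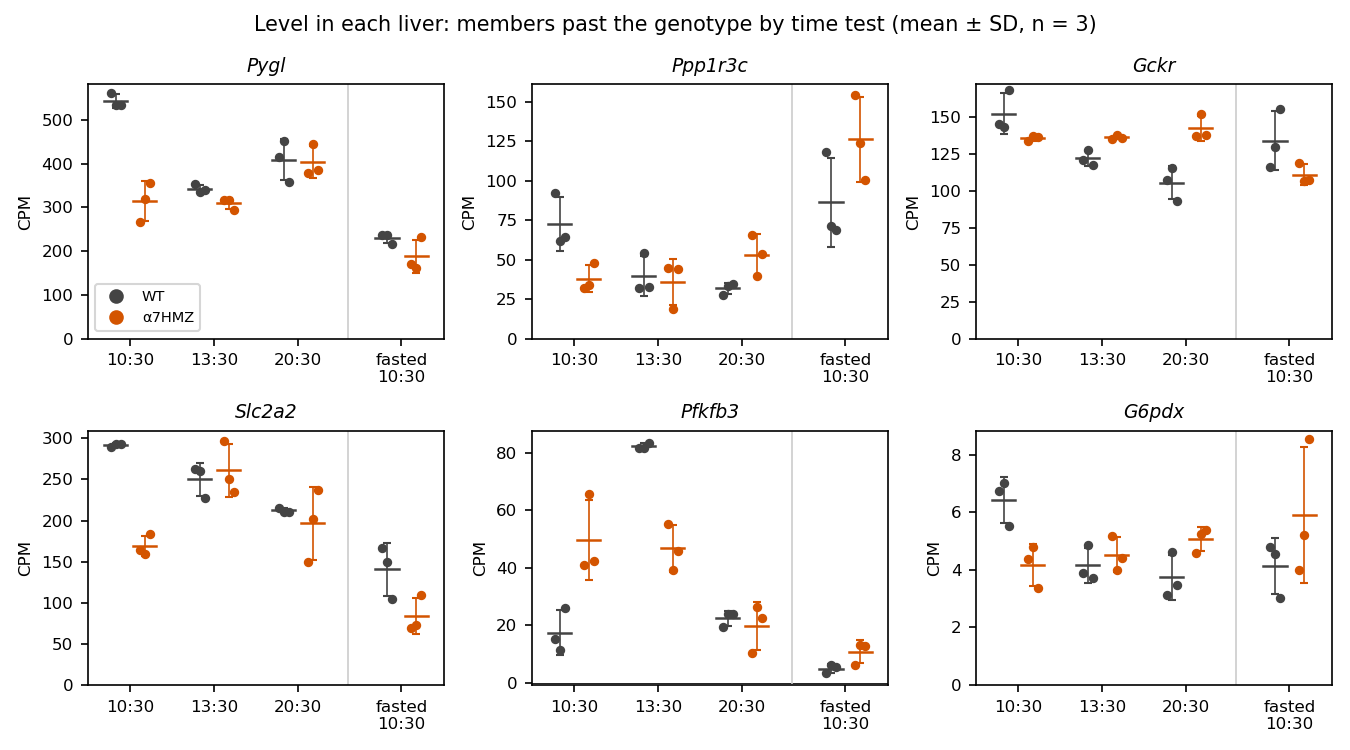
CPM (vertical axis, linear, a separate scale in each panel) in each liver of the 6 genes that passed the genotype by time test, in the same layout, with WT in grey, α7HMZ in orange and lines for the mean ± SD of 3. Pygl and Slc2a2 are apart between genotypes at 10:30 and meet later, Gckr and Ppp1r3c cross, and WT livers reach 81.5 to 83.5 CPM of Pfkfb3 at 13:30 alone.

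Livers after lights off, at 20:30, were compared with those of the light phase at 13:30, both on flow cell 377. In WT, 11 of the 36 were called (30.6%, background 21.6%), 9 higher and 2 lower at 20:30 (11.6% and 9.97% of all genes). Glycolysis led, with 5 genes higher: Pfkl, the liver phosphofructokinase (0.65 ± 0.13), Tpi1 (0.60 ± 0.12), Gapdh (0.60 ± 0.10), Pgk1 (0.57 ± 0.12) and Ldha (0.55 ± 0.12). Khk (0.53), Taldo1 (0.48), Fbp1 (0.42) and Pcx (0.37) were higher too. Pfkfb3 (-1.88 ± 0.30) and Ppp1r3g (-2.42 ± 0.66) were lower. Hepatocyte markers summed to 86929 to 104965 CPM at 13:30 and 125202 to 154691 CPM at 20:30 in WT, with 3 of 6 tested called higher, and their part was not tested. With GC-quantile offsets 6 members were called in place of 11, 4 higher and 2 lower, beside 1367 and 1287 of all genes. The calls of Tpi1 (adjusted p = 0.0549), Ldha (0.0826), Fbp1, Pcx and Khk ended there.

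In α7HMZ livers, 8 of the 36 were called over that step (22.2%, background 5.21%), 6 higher and 2 lower (3.16% and 2.05% of all genes). Higher at 20:30 were Ppp1r3b (1.45 ± 0.37), Pfkfb1 (1.00 ± 0.18), Pgk1 (0.58 ± 0.12), Fbp1 (0.54 ± 0.12), Tpi1 (0.45 ± 0.12) and Pygl (0.39 ± 0.11), and lower were Pfkfb3 (-1.26 ± 0.29) and Gys2 (-0.48 ± 0.13). The Pygl call ended under 18 of 27 alternatives, and the Gys2 call under 12. With GC-quantile offsets 4 members were higher and 5 lower, beside 464 and 370 of all genes (421 and 274 with TMM). Hepatocyte markers summed to 78926 to 91037 CPM at 13:30 and 97819 to 121158 CPM at 20:30 in α7HMZ, with 1 of 6 tested called higher. Biliary markers summed to 49.3 to 65.3 and 71.0 to 89.96 CPM, with 3 of 5 tested called higher, and the part of either list was not tested. A call in 1 genotype alone does not show that the genotypes differ in this step, and the difference of the 2 steps was tested only as part of genotype by time. Without the 4 fed libraries richest in Rn45s, Krt19 or Ctrb1, which leaves 1 α7HMZ liver at 20:30, 5 members were called in α7HMZ, and Gys2, Ppp1r3b and Pfkfb3 were no longer among them. That lone liver was assumed to vary like those of the other groups. Without α7HMZ replicate 1 or 2 at 13:30 the count was 2, and without α7HMZ replicate 3 at 13:30, or replicate 1 or 2 at 20:30, it was 4.

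To ask how the members respond to fasting, fasted and fed WT livers at 10:30 were compared, all on flow cell 375. Of the 36, 19 were called (52.8%, background 22.7%), with 6 higher (background 12.0%) and 13 lower (background 10.6%) after the fast. With GC-quantile offsets 3 were higher and 14 lower, beside 1428 and 1223 of all genes. The rises of Pck1, Pcx and Aldoa were no longer called there (adjusted p = 0.131, 0.111 and 0.0847). Gluconeogenesis had 3 genes higher, and all 3 pentose phosphate calls and all 4 of hepatocyte glucose control were lower. Marker sums moved in the same comparison. Kupffer markers summed to 254 to 345 CPM in fed and 94.6 to 172 CPM in fasted WT livers, endothelial markers to 275 to 318 and 133 to 220 CPM, and the erythroid sum to 154 to 166 and 75.2 to 85.4 CPM, and their part in the changes was not tested. The 7 hepatocyte markers summed to 113656 to 142678 CPM fed and 131100 to 149980 CPM fasted, with 1 of 6 tested called lower.

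Fasted WT livers held 3698, 4296 and 4352 CPM of Pck1, all above the fed values of 1813 to 2119 CPM, and Pck1 rose by 1.09 ± 0.33 (adjusted p = 0.029). This call ended under 6 alternatives, GC-quantile offsets among them. Pcx, at 588, 617 and 522 CPM, rose by 0.62 ± 0.12 (adjusted p = 0.00283), and Fbp1 rose by 0.49 ± 0.12. The fasted values of Pck2 were 2.75, 2.67 and 3.08 CPM, 0.43 ± 0.20 above fed (adjusted p = 0.14). Ldha rose to 1265, 1315 and 1252 CPM from 586 to 655 CPM (1.05 ± 0.13, adjusted p = 0.000148). Ldha and Aldoa (0.52 ± 0.14) were the glycolysis genes that rose.

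Of the 7 glycogen genes, 3 fell and 1 rose in WT, and 3 did not pass. Pygl fell to 236, 237 and 217 CPM (-1.23 ± 0.15, adjusted p = 9.93e-05), Gbe1 to 49.0, 51.7 and 30.7 CPM from 89.4 to 94.5 CPM (-1.07 ± 0.18, adjusted p = 0.000888), and Ppp1r3b to 101, 182 and 170.3 CPM (-1.26 ± 0.25, adjusted p = 0.00327). None of these 3, which were named because they were called, overlapped between fed and fasted livers. The share of all genes that were apart was not counted. Gys2 rose by 0.42 ± 0.13 to 159, 199 and 141 CPM (adjusted p = 0.0332), a call that ended without any 1 of the 3 fed WT livers. Ppp1r3c, at 119, 71.6 and 68.7 CPM, and Ppp1r3g, at 1.47, 2.73 and 1.516 CPM, overlapped with the fed livers and did not pass, and neither did Ugp2 (adjusted p = 0.421).

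Among the 36 members, Pklr and Pfkfb3 fell most in WT. Pklr stood at 34.3, 51.5 and 33.5 CPM in fasted against 141 to 147 CPM in fed livers (-1.85 ± 0.28, adjusted p = 0.000554). Pfkfb3 stood at 3.14, 5.99 and 5.43 CPM (-1.83 ± 0.37, adjusted p = 0.00332), below each of its fed values. Pfkfb1, at 18.4, 21.0 and 19.4 CPM, fell by 1.03 on the log2 scale (adjusted p = 0.00669). Slc2a2, at 167, 149.9 and 105 CPM, fell by 1.05 (adjusted p = 0.00164), and Khk fell by 0.78. Gckr, at 116, 129 and 155 CPM, did not pass (-0.18 ± 0.12). Pgd fell to 16.7, 15.4 and 17.8 CPM (-1.13 ± 0.17, adjusted p = 0.000387), and Tkt, Taldo1 and Pdk1 fell by 0.62, 0.60 and 0.63. G6pdx, at 4.81, 4.57 and 3.03 CPM, lay below its fed values but did not pass (-0.64 ± 0.27, adjusted p = 0.109). Eno1 was called too (-0.998), on 12 to 34 counts.

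In α7HMZ livers the fasted and fed groups lie on different flow cells, so fast and flow cell cannot be told apart. Of the 36, 11 were called (30.6%, background 12.6%), with 4 higher and 7 lower (6.68% and 5.90% of all genes). Hepatocyte markers summed to 93946 to 114621 CPM in fed and 77067 to 92140 CPM in fasted α7HMZ livers, with none of 6 called, and the erythroid sum to 65.9 to 76.8 and 41.6 to 49.0 CPM. Kupffer markers summed to 211 to 291 CPM fed and 153 to 756 CPM fasted, with none of 6 called, and the part of these markers was not tested. Members called in the same direction in both genotypes were 3 that rose (Fbp1, Aldoa and Ldha, 3 of 6 in WT and 3 of 4 in α7HMZ) and 6 that fell (Pygl, Gbe1, Ppp1r3b, Pklr, Slc2a2 and Pfkfb3, 6 of 13 and 6 of 7). Over all genes 36.3% of the WT rises and 65.3% of the α7HMZ rises were shared, and 35.1% and 63.3% of the falls. Fasted α7HMZ livers held 172, 162 and 232 CPM of Pygl (-0.73 ± 0.15), 47.5, 57.0 and 60.5 CPM of Gbe1 (-0.70 ± 0.17), and 131, 130.4 and 221 CPM of Ppp1r3b (-1.34 ± 0.25). They held 49.2, 47.7 and 88.0 CPM of Pklr (-0.91 ± 0.28), 69.6, 73.6 and 109 CPM of Slc2a2 (-1.003 ± 0.19), and 6.08, 13.2 and 12.8 CPM of Pfkfb3 (-2.20 ± 0.35). Each of these 6 was named because it was called, and Pklr alone overlapped with its fed values. The share of all genes that were apart was not counted here either. The Pklr call ended under 11 of 20 alternatives, relative log expression and upper quartile factors among them.

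Ppp1r3c rose in α7HMZ, to 154, 124 and 101 CPM from 32.0 to 47.6 CPM (1.74 ± 0.24, adjusted p = 0.000477). The difference of its fasting effects between genotypes was 1.48 ± 0.34 (adjusted p = 0.110). Pck1 was 0.27 ± 0.32 in α7HMZ (adjusted p = 0.645), and without the fed library rich in Rn45s it rose by 1.00 (adjusted p = 0.000598). Pgd, at 19.2, 21.8 and 27.997 CPM fasted, was -0.22 ± 0.16 in α7HMZ. Over the 36, none passed the genotype by fasting test in edgeR, where 0.252% of all genes did, and 12 had an unadjusted p under 0.05, beside 14.9% of all genes. DESeq2 called 2, Ppp1r3c (1.49) and Pgd (0.93), and edgeR without a filter on low counts called 1, Ppp1r3c. A p that misses the threshold does not show that the genotypes respond alike, and this test also cannot be told apart from the flow cell.

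**Figure D4:**
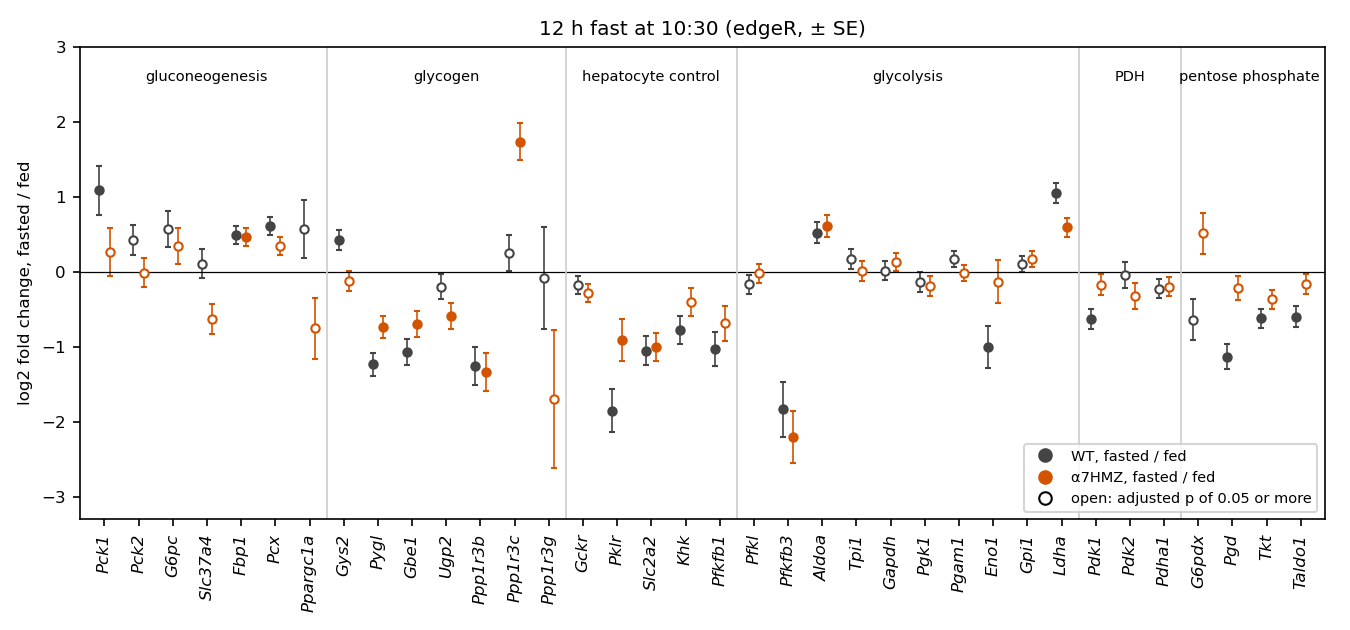
Log2 fold change (fasted over fed at 10:30, vertical axis) of the 36 genes by role, with WT in grey and α7HMZ in orange, bars for the standard error and open points for an adjusted p of 0.05 or more. Pklr and Pfkfb3 lie lowest in WT at -1.85 and -1.83, Pck1 and Ldha highest at 1.09 and 1.05, and the α7HMZ comparison lies across the flow cells.

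Fasted livers of the genotypes were compared last, across flow cells. Of the 36, 11 were called (30.6%, background 15.5%), with 1 higher and 10 lower in α7HMZ (6.90% and 8.65% of all genes). With GC-quantile offsets 3 were higher and 9 lower, beside 989 and 1078 of all genes (904 and 1133 with TMM). Of the 14 members lower in fed α7HMZ livers, 9 (64.3%) were also lower in fasted ones, which are other mice, and they were 9 of the 10 lower in fasted livers (90%). Over all genes these shares were 46.0% and 71.6%. The 9 were Pck1, Slc37a4, Pcx, Gys2, Ugp2, Ppp1r3g, Slc2a2, Tpi1 and Ldha, and the other was Ppargc1a.

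Pck1 in fasted α7HMZ livers was 1239.6, 1169 and 1355 CPM, all below the 3698 to 4352 CPM of fasted WT livers (-1.72 ± 0.33, adjusted p = 0.00368). Gys2, at 53.2, 58.1 and 55.6 CPM, was lower by -1.59 ± 0.13 (adjusted p = 4.61e-06), and Pcx, at 248.9, 225 and 290.2 CPM, by -1.18 ± 0.12 (adjusted p = 2.74e-05). Tpi1, at 237, 189.9 and 191 CPM against 425, 375 and 404 CPM, was lower by -0.97 ± 0.13 (adjusted p = 0.000359). Ldha, at 852, 818 and 641 CPM, was lower by -0.74 ± 0.13, and Slc37a4 by -1.11 ± 0.20. No fasted α7HMZ liver reached the lowest fasted WT liver for these 6 genes, nor for Ugp2, Ppargc1a and Ppp1r3g, while Slc2a2 overlapped. How many of all genes were apart in this way was not counted. Ppargc1a ranged from 6.59 to 9.86 CPM in α7HMZ and 21.2 to 30.3 CPM in WT (-1.59 ± 0.40, adjusted p = 0.0176). Ppp1r3g, at 0.315, 0.343 and 0.228 CPM, was lower by -2.63 ± 0.83 (adjusted p = 0.0475). Pfkfb3 was the one member higher (1.15 ± 0.36, adjusted p = 0.0487).

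Among members that did not pass in fasted livers were Pfkfb1, at 18.7, 8.56 and 9.07 CPM in α7HMZ (-0.70 ± 0.23, adjusted p = 0.0588), Pck2, at 4.35, 3.35 and 3.48 CPM (0.38 ± 0.19), Gckr, at 119, 106 and 107 CPM (-0.28 ± 0.12), and G6pdx, at 3.99, 5.21 and 8.55 CPM (0.51 ± 0.27). The third fasted α7HMZ liver stood apart in markers, with a Kupffer sum of 756 CPM, against 153 and 171 CPM in the other two. Without it Pfkfb3 (0.99, adjusted p = 0.130) and Ppp1r3g (-2.51, 0.103) were no longer called, and Pygl was (-0.49, 0.0386). Leaving out fasted α7HMZ replicate 2 left 6 members called, and leaving out fasted WT replicate 2 left 7. Hepatocyte markers summed to 77067 to 92140 CPM in fasted α7HMZ and 131100 to 149980 CPM in fasted WT livers, with 2 of 6 tested called lower. Kupffer markers summed to 153 to 756 and 94.6 to 172 CPM, with 3 of 6 called higher. Endothelial markers summed to 225 to 277 and 133 to 220 CPM, with 2 of 6 called higher. Of 5 biliary markers tested, 3 were called lower and 1 higher. The part of these markers in the differences was not tested.

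A wider list of 76 other genes of glucose, glycogen, fructose, lactate and glycerol handling was counted in the same way, 71 of which passed the filter. In fed livers 23 of the 71 were called between genotypes, 11 higher and 12 lower, where 26.5% of all genes were called, and in fasted livers 23, with 5 higher and 18 lower (15.5% of all genes). After the fast 25 of the 71 were called in WT, 15 higher and 10 lower (22.7% of all genes), and 18 in α7HMZ, 10 higher and 8 lower (12.6%). The 10 with the smallest p in the fed mean are named, a choice made from these same data. Lower in α7HMZ among them were Dak, the triokinase that acts downstream of Khk (-1.15 ± 0.080, adjusted p = 3.26e-09), Sord, sorbitol dehydrogenase (-0.63 ± 0.082), and Glyctk, glycerate kinase (-0.64 ± 0.097). Khk itself did not pass (adjusted p = 0.0909). Aldoc, the brain-type aldolase (-0.77 ± 0.082), Ldhd, the D-lactate dehydrogenase (-0.55 ± 0.059), Got1, the cytosolic aspartate aminotransferase (-0.65 ± 0.092), and Slc2a9, a urate transporter of the glucose transporter family (-0.47 ± 0.070), were lower too. Higher were Slc2a4, the insulin-regulated GLUT4 (1.48 ± 0.23), Gpd2, the mitochondrial glycerol 3-phosphate dehydrogenase (0.65 ± 0.12), and Slc16a7, a monocarboxylate transporter (0.53 ± 0.073).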

How the data were processed

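Liver poly(A) RNA was made into libraries with a TruSeq kit that does not mark strand, and sequenced as single 75-base reads. A read therefore does not tell a gene from an overlapping antisense partner. The authors used TopHat2 2.1.1 for alignment to mm10, with 1 unique alignment kept for a read, and HTSeq 0.6.1 for counting, according to their methods and notes. Raw counts of 23411 gene symbols stand in the deposited table, and FPKM files made by the authors were not used. The study's methods name EDASeq factors in DESeq2.

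The main tests were glmQLFit and glmQLFTest of edgeR 4.0.16 under R 4.3.3, after filterByExpr on the groups and TMM scaling, and Benjamini-Hochberg adjustment was made over all genes tested. A fit of the 18 fed libraries (6 groups, 13334 genes) gave the genotype and time comparisons, and a fit of the 12 libraries at 10:30 (4 groups, 13103 genes) the fasting ones. Standard errors are the log2 fold change over the square root of F. With 3 mice a group, p-values set each difference against the spread between mice, pooled over the groups of the fit and shared in part across genes. They do not cover differences between flow cells. Depth was 8545959 to 28445590 counts. Replicates differed beyond sampling noise, with a chi-square per degree of freedom of at least 11.0, so none was counted as a duplicate. The tests were tried on simulated counts. Coordinates are from GENCODE on mm10, and tables and plots used Python 3.11.15, numpy 2.4.6, pandas 2.3.3 and matplotlib 3.10.9.

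The members, the gene lists and the 4 libraries left out together were chosen with earlier results of these data known, and the letters searched for near start sites after the results were seen. Values of every liver are given for members called in the fed mean with a log2 fold change of at least 0.5 in size, called in WT fasting with at least 1, or called in genotype by time. The other members are given by ranges and short values, and of the wider list the 10 genes with the smallest p in the fed mean are named. Alternatives were upper quartile factors, relative log expression factors, GC-quantile offsets (an own version of EDASeq's GC and full quantile steps, since EDASeq was not run), DESeq2 1.42.0, no filter on low counts, all 24 libraries in 1 fit, a replicate block, Rn45s left out, 4 fed libraries richest in Krt19, Ctrb1 or Rn45s left out, and each library left out.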

Additional observations from a re-analysis of the deposited data

Results flagged for a closer look

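In 6 members the genotype difference changed over the fed times by the interaction test in edgeR. The adjusted p was 0.0157 for Pfkfb3, 0.0228 for Pygl, 0.0324 for Slc2a2, 0.0401 for Gckr, 0.0424 for G6pdx and 0.0485 for Ppp1r3c. Of 27 alternatives, the call ended in none for Pfkfb3, 3 for Pygl, 8 for Slc2a2, 16 for Gckr, 18 for G6pdx and 20 for Ppp1r3c. No group had enough livers for a test of single outlying values.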

How the results depend on the processing

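Counts of members called stayed within 1.5 times the reported count for the mean over fed times, 10:30, and fasting in WT and α7HMZ under the alternatives run. With GC-quantile offsets 11 members were called at 13:30 in place of 6, and 6 in WT over the step from 13:30 to 20:30 in place of 11, and Pygl at 20:30 turned to 0.28 (adjusted p = 0.0489). Without 4 fed libraries richest in Krt19, Ctrb1 or Rn45s, 11 members were called at 13:30, 6 at 20:30 in place of 10, and 5 in α7HMZ over the step to 20:30 in place of 8. All 24 libraries in 1 fit left 2 members in genotype by time in place of 6. The replicate block left 3 there. Same-numbered libraries did not deviate together (correlations from -0.167 to 0.0897), which, with 3 libraries a group, cannot settle whether the numbers pair mice. Genotype by fasting gave 2 members in DESeq2 and 1 with no filter on low counts, in place of 0. Leaving out each library gave 14 to 17 members for the fed mean, 10 to 15 at 10:30, 5 to 8 at 13:30, 7 to 11 at 20:30, 1 to 7 for genotype by time, 8 to 13 and 2 to 8 for the step to 20:30 in WT and α7HMZ, 14 to 20 and 8 to 13 for fasting in WT and α7HMZ, 6 to 11 for fasted genotypes and 0 to 1 for genotype by fasting. The lowest in α7HMZ over the step to 20:30 came without α7HMZ replicate 1 or 2 at 13:30. Where no value shows it, the cause was not tested. Depth limits Ppp1r3g, Pck2, G6pdx and Eno1, which had 182 counts or fewer in every library.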
